A study of Rattus norvegicus with 10 samples.

Results

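The 6 genes described here were present in the hippocampus of untreated animals and lower in animals fed RG2833, at 5.29% to 31.0% of the untreated mean. The set was proposed as near-silent in RG2833 animals, and the values go against that name for several members: Bnc1, Ccl9 and LOC100363112 stayed above a floor of 3 counts in all 5 RG2833 libraries. They are Bnc1, RatNP-3b, Acaa1b, Ccl9, LOC100363112 and LOC500354, 6 of the 17168 gene symbols in the deposited tables. They were chosen by their CPM, present in the untreated columns and low in the RG2833 columns, so the difference between the groups is the rule by which they were picked. It is given below as a description without a test. Left hippocampi of 10 rats, females of the TgF344-AD strain (genotype label Tg-AD), gave the RNA, and the animals were all 11 months old when the tissue was taken after ketamine and xylazine anaesthesia and perfusion. Of these, 5 ate rodent chow and 5 ate RodentChow that contained RG2833, an inhibitor of the histone deacetylases HDAC1 and HDAC3, 750 mg in each kg, starting when they were 5 months old and lasting 6 months. A food dye (FD&C Blue Dye #1) told the 2 diets apart. All 10 animals carry the transgenes of the model, which from general knowledge are driven by a mouse prion promoter, so both groups share them. No animal without the transgenes was analysed here.

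Histone deacetylases remove acetyl groups from histones within corepressor complexes, and their inhibition changes transcription in both directions. The 6 genes belong to unrelated families. Bnc1 encodes basonuclin 1, a zinc finger protein of basal keratinocytes, mesothelium and germ cells that is known to bind promoters of ribosomal RNA genes. RatNP-3b encodes the precursor of an alpha-defensin, an antimicrobial peptide stored in neutrophil granules. Acaa1b encodes a peroxisomal 3-ketoacyl-CoA thiolase, which performs the last step of peroxisomal fatty acid oxidation and has a close relative in Acaa1a. Ccl9 encodes a CC chemokine of myeloid cells, a ligand of the receptor Ccr1, and is a close relative of Ccl6. LOC100363112 is described in the deposited table as Aa2-296-like and LOC500354 as similar to C030030A07Rik protein. Their functions are not known well enough to state.

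Total estimated counts ranged from 8764266 to 11131412 in the untreated libraries and from 9535071 to 11311673 in the RG2833 libraries. A floor of 3 counts was set, equal to 0.268 to 0.343 CPM, which are counts scaled to a common library size by TMM. This floor covers counting error only. Ribosomal RNA loci, LOC257642 among them, took 2.70% to 5.36% of the counts of untreated libraries and 1.13% to 1.96% of those of RG2833 libraries, without overlap. Because this share separated the animals as the diet did, the share and the diet cannot be told apart as sources of any difference below. All 7 listed markers of hippocampal neurons, among them Prox1, Neurod6 and Slc17a7, passed the filter on low counts. In RNA from whole tissue, fewer cells that express a gene and less RNA per cell cannot be told apart.

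The level of Bnc1 was 21.2, 19.1, 16.5, 11.6 and 11.6 CPM in untreated replicates 1 to 5. In RG2833 replicates 1 to 5 it was 0.668, 1.07, 0.413, 0.931 and 1.46 CPM, which came from 7, 12, 4, 9 and 14 counts. Every RG2833 animal thus kept a small number of Bnc1 reads above the floor, and none was at 0. The mean fell from 16.0 ± 4.32 to 0.909 ± 0.3997 CPM (SD, n = 5 each), so that the RG2833 level was 5.68% of the untreated level. The lowest untreated value was 7.94 times the highest RG2833 value, the widest separation among the 6 genes. The fitted log2 fold change was -4.12 ± 0.28 (SE). Bnc1 was also the only 1 of the 6 whose estimated counts were whole numbers in all 10 libraries.

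The Bnc1 promoter window is shown because it is unlike those of the other members. The window covers 250 bases before and 50 bases after the start in RefSeq, at chr1:145352485-145352784 of the build GRCr8 on the minus strand. The GC box letters (GGGCGG on either strand) are in capitals.
Bnc1: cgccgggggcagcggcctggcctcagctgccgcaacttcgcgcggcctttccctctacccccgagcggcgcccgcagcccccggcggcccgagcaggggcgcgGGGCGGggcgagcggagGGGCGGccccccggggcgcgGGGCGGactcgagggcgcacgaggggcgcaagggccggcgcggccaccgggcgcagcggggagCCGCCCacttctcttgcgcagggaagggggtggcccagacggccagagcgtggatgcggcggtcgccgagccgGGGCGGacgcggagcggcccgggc
The window holds 5 GC boxes, a motif present in 33.1% of the 33469 RefSeq promoter windows of this length. Its GC content was 82.7%, higher than in 99.7% of those windows, and it held 48 CpG dinucleotides. By contrast, GC content was 42.7% for RatNP-3b, 54.7% for Acaa1b and 44.7% for Ccl9, around a median of 51.7% for all windows, and these 3 windows held 0 GC boxes. The CpG ratio, observed over expected from base composition, was 0.949 for Bnc1, 0.073 for RatNP-3b, 0.462 for Acaa1b and 0.202 for Ccl9. By these measures the windows of the 4 genes differed. The letters of the E-box (CACGTG), the CRE (TGACGTCA) and a direct repeat element of nuclear receptors, searched on both strands, were in 0 of these 4 windows. Among all windows, 6.42%, 1.83% and 0.0538% held them.

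RatNP-3b was measured at 11.1, 10.6, 11.95, 3.26 and 4.34 CPM in untreated replicates 1 to 5 and at 0.286, 0.446, 0.413, 0.931 and 0.105 CPM in RG2833 replicates 1 to 5. The untreated values fell into a high set, replicates 1 to 3, and a lower set, replicates 4 and 5, and both stayed above all RG2833 values. In the RG2833 group, 2 of 5 libraries were at or under the floor of 3 counts. The means were 8.25 ± 4.11 and 0.436 ± 0.307 CPM (SD, n = 5), which put the RG2833 level at 5.29% of the untreated one, a fitted log2 fold change of -4.20 ± 0.50 (SE).

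RatNP-3b lies in a defensin gene cluster. In the RefSeq gene order its nearest listed genes are Defa8, Defa9, Np4, Defa10 and Defa11 on 1 side and Defb51, Defb52, Defb33, Defb5 and Defb3 on the other. All 10 of these neighbours had 0 counts in all 10 libraries, so among these listed genes only RatNP-3b had reads assigned to it. Its own estimated counts were not whole in any of the 10 libraries. Some of its reads were thus divided with other sequences, which were not identified. The promoter window of Np4, an alpha-defensin gene among the neighbours, is set beside that of RatNP-3b because the windows are nearly alike while the assigned levels are not. RatNP-3b is at chr16:77248928-77249227 and Np4 at chr16:77199593-77199892 of GRCr8, both on the minus strand. Capitals mark bases that differ or have no partner in the alignment.
RatNP-3b: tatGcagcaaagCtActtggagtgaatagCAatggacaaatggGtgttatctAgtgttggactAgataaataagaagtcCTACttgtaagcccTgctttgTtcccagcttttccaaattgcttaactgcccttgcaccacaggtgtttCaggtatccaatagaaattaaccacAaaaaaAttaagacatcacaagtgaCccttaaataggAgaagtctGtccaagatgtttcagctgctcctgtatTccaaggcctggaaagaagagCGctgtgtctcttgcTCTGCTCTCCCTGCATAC
Np4: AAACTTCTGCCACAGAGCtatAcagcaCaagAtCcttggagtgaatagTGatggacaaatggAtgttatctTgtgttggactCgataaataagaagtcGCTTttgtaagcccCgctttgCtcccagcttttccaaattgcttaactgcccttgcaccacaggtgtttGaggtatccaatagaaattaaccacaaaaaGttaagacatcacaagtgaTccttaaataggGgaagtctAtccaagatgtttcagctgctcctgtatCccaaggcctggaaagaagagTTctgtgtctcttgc
Of 281 aligned bases, 259 were identical, or 92.2%. Of the 10 alpha-defensin relatives in the table, 9 had 0 counts in all libraries and the other, Defa24, was at 0.0229 ± 0.0512 CPM in untreated and at 0 in RG2833 libraries, under the floor in each group.

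Acaa1b was at 8.92, 7.69, 3.71, 7.17 and 6.35 CPM in untreated replicates 1 to 5. It was at 0 in RG2833 replicates 1, 2 and 4, at 1.96 CPM in replicate 3 and at 0.523 CPM in replicate 5. This was the only 1 of the 6 genes with RG2833 libraries at 0, and the gap between the groups was narrow, with the lowest untreated value 1.89 times the highest RG2833 value. The means were 6.77 ± 1.95 and 0.497 ± 0.8505 CPM (SD, n = 5), an RG2833 level of 7.35% of the untreated one, or 1.93% without RG2833 replicate 3. The fitted log2 fold change was -3.78 ± 0.67 (SE).

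The level of Acaa1b cannot be read apart from that of its relative Acaa1a. The deposited values are estimated counts, in which a read that matches several genes is divided among them, so a value that is not whole shows that reads were divided. In each of the 10 libraries the estimated counts of Acaa1a and Acaa1b added up to a whole number within 0.015. In untreated replicate 1, for example, 259.33 for Acaa1a and 77.67 for Acaa1b gave 337. In RG2833 replicates 1, 2 and 4, where Acaa1b was at 0, Acaa1a alone was whole, at 335, 348 and 313. Acaa1b held 19.7 ± 4.86% of the summed estimated counts in untreated and 1.597 ± 2.76% in RG2833 animals (SD, n = 5). The sum was 38.6, 36.0, 32.9, 31.8 and 31.2 CPM in untreated replicates 1 to 5 and 32.0, 31.0, 30.6, 32.4 and 31.1 CPM in RG2833 replicates 1 to 5, and the groups overlapped. Its mean in RG2833 animals was 92.1% of the untreated mean, with a fitted log2 fold change of -0.12 ± 0.08 (SE). The share assigned to Acaa1b was thus smaller in every RG2833 library, while the summed level moved by less than the SD of the untreated group (34.1 ± 3.09 against 31.4 ± 0.734 CPM). How many reads are specific to either gene was not tested.

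**Figure D1:**
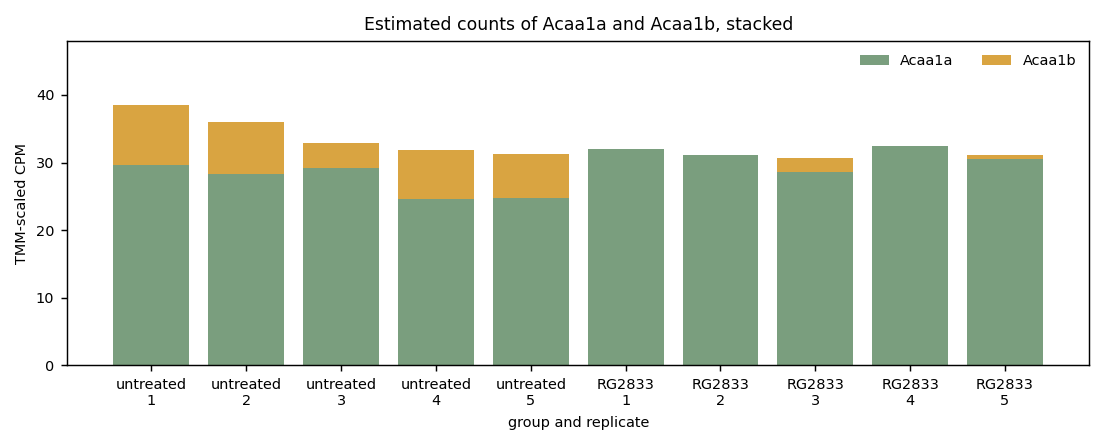
Estimated counts of Acaa1a and Acaa1b as TMM-scaled CPM, stacked, with 1 bar for each library (group and replicate on the horizontal axis). The Acaa1b part makes up 11.2% to 23.0% of the bar in untreated animals and 0% to 6.36% in RG2833 animals, while the full height overlaps between the groups.

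Acaa1a alone had a mean of 27.3 ± 2.39 CPM without and 30.9 ± 1.47 CPM with RG2833 (SD, n = 5), and its groups overlapped. Its log2 fold change of 0.18 ± 0.08 (SE) did not pass the test (edgeR adjusted p = 0.195). The promoter windows of both genes are shown because the genes share reads while their windows differ in GC boxes. These windows were not aligned with each other. Acaa1b is at chr8:127759520-127759819 on the minus strand and Acaa1a at chr8:127957231-127957530 on the plus strand of GRCr8, with GC boxes in capitals.
Acaa1b: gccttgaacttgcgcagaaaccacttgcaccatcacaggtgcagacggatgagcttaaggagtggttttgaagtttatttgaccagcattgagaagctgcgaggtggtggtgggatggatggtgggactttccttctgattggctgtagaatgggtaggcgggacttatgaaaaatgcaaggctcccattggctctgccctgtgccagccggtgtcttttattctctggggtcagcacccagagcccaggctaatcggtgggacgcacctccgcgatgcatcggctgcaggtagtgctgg
Acaa1a: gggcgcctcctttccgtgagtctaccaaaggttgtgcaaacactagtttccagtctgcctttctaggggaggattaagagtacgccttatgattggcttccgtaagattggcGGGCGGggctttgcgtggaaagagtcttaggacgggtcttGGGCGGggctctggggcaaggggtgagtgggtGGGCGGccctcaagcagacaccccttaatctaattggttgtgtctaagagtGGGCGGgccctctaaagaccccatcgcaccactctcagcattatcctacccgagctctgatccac
The Acaa1a window holds 4 GC boxes and the Acaa1b window 0.

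Ccl9 was at 22.1, 27.1, 12.3, 11.9 and 6.77 CPM in untreated replicates 1 to 5 and at 2.29, 1.34, 3.51, 0.931 and 0.732 CPM in RG2833 replicates 1 to 5. The untreated values spanned a 3.999-fold range and the RG2833 values a 4.80-fold range, and the lowest untreated value was 1.93 times the highest RG2833 value. The means were 16.0 ± 8.29 and 1.76 ± 1.15 CPM (SD, n = 5), so that the RG2833 level was 11.0% of the untreated one (log2 fold change -3.18 ± 0.44, SE). All 5 RG2833 libraries were above the floor, with 7 to 34 rounded counts.

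Ccl6, the gene next to Ccl9, was near 0 in both groups. Its highest value was 0.499 CPM in an untreated and 0.724 CPM in an RG2833 animal, and its means were 0.185 ± 0.193 and 0.201 ± 0.302 CPM (SD, n = 5). The other chemokine neighbours Ccl3, Ccl4 and Ccl5 had group means between 0.125 and 0.741 CPM and did not pass the filter on low counts. The promoter windows of the pair are shown because the genes adjoin and their windows can be aligned. Ccl9 is at chr10:68868828-68869127 and Ccl6 at chr10:68883317-68883616 of GRCr8, both on the minus strand, with the TATA box letters (TATAAA on either strand) in capitals.
Ccl9: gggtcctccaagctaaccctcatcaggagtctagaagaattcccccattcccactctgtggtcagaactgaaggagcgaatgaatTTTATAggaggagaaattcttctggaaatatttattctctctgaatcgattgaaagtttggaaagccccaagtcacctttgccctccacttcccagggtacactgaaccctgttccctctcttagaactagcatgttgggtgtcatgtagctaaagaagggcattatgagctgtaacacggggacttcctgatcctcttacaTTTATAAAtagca
Ccl6: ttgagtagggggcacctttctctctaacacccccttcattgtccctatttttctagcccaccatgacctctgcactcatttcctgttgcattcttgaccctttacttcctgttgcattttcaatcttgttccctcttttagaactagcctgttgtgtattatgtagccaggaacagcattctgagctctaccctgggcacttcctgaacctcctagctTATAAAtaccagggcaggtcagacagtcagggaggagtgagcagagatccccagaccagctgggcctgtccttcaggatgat
Of 200 aligned bases 147 were identical, or 73.5%. The Ccl6 window has 1 TATA box, at -32 from the start, and the Ccl9 window has 3 matches, 1 at -165 and 2 that overlap each other past the start. The TATA box letters were in 14.2% of all promoter windows.

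LOC100363112 was at 12.5, 14.7, 9.82, 8.19 and 7.30 CPM in untreated replicates 1 to 5 and at 2.003, 1.87, 1.14, 1.97 and 1.36 CPM in RG2833 replicates 1 to 5. The RG2833 values had the smallest relative spread of the 6 genes, with 11 to 21 counts in each library. The means were 10.5 ± 3.06 and 1.67 ± 0.394 CPM (SD, n = 5), an RG2833 level of 15.9% and a fitted log2 fold change of -2.64 ± 0.24 (SE). LOC500354 was at 1.37, 2.60, 2.32, 1.58 and 2.01 CPM in untreated replicates 1 to 5 and at 0.763, 0.535, 1.03, 0.207 and 0.523 CPM in RG2833 replicates 1 to 5. It was the least reduced of the 6, at 31.0% of the untreated level (1.98 ± 0.505 and 0.612 ± 0.308 CPM, SD, n = 5), with a fitted log2 fold change of -1.67 ± 0.34 (SE). The lowest untreated value was only 1.33 times the highest RG2833 value. LOC500354 matches the RefSeq gene C4h12orf60 by gene ID, and LOC100363112 was not matched.

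**Figure D2:**
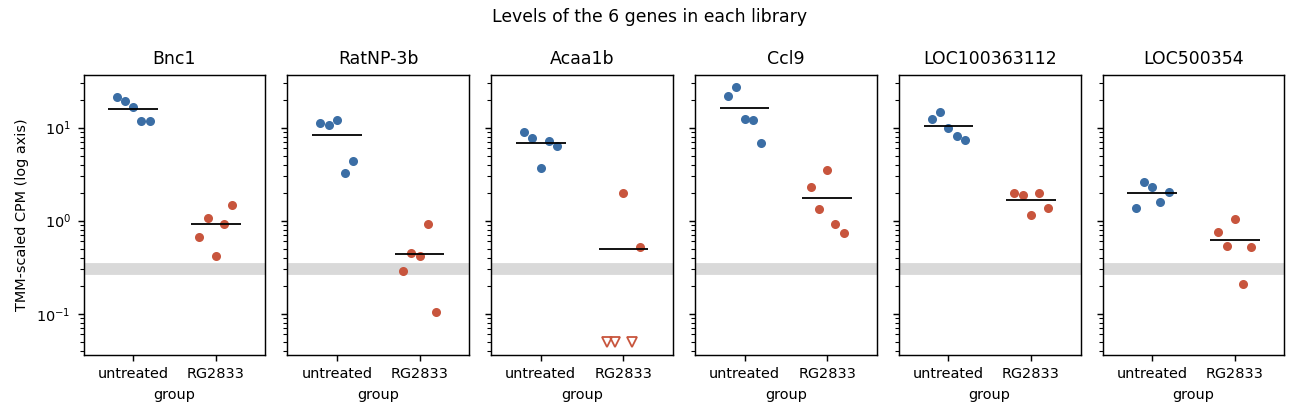
TMM-scaled CPM of the 6 genes in each library (log axis), with 5 points per group, a bar at the group mean and open triangles at the foot for libraries at 0. The grey band is the level of 3 counts, from 0.268 to 0.343 CPM, and in each panel all untreated points lie above all RG2833 points.

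In none of the 6 genes did the groups overlap. Among the 11791 tested genes, 3.47% were lower in RG2833 animals without overlap, 7.27% did not overlap in either direction, and 2.67% were called lower (edgeR quasi-likelihood test, adjusted p under 0.05). All 6 genes passed the filter on low counts, and since the rule used this contrast nothing is read from the count of 6. Whether the fall was switch-like or graded was described by 3 measures: the level left in RG2833 animals, the gap between the groups, and the spread within each group. None of the 6 genes was at 0 in all RG2833 animals. Bnc1, Ccl9 and LOC100363112 had reads above the floor in each of the 5, RatNP-3b in 3, LOC500354 in 4 and Acaa1b in 2.

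The spread within the untreated group differed between the genes. The highest untreated value was 1.82 times the lowest for Bnc1, 3.67 times for RatNP-3b, 2.41 times for Acaa1b, 2.01 times for LOC100363112 and 1.89 times for LOC500354. The spread was compared with counting noise by an index that is near 1 when the counts of a group vary only as counting allows. In untreated animals the index was 42.2 for Ccl9, 20.9 for RatNP-3b, 11.3 for Bnc1, 8.82 for LOC100363112, 5.74 for Acaa1b and 1.25 for LOC500354. In RG2833 animals it was 0.913 for LOC100363112, 1.504 for LOC500354, 1.71 for Bnc1, 2.104 for RatNP-3b, 7.31 for Ccl9 and 15.04 for Acaa1b. The index of 4 genes was thus between 0.913 and 2.104 in RG2833 animals, and that of Ccl9 and Acaa1b was higher. With fewer counts in the RG2833 group the same relative spread gives a lower index.

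Untreated replicates 4 and 5 held the lowest 2 values for Bnc1, RatNP-3b, Ccl9 and LOC100363112. Acaa1b was lowest in replicates 3 and 5, and LOC500354 in replicates 1 and 4. Replicates 4 and 5 were also the lowest 2 untreated animals for 59.0% of the 315 genes called lower and for 15.7% of all tested genes, so this order is not particular to the 6. With 5 untreated animals, no correlation between genes within the group is given.

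**Figure D3:**
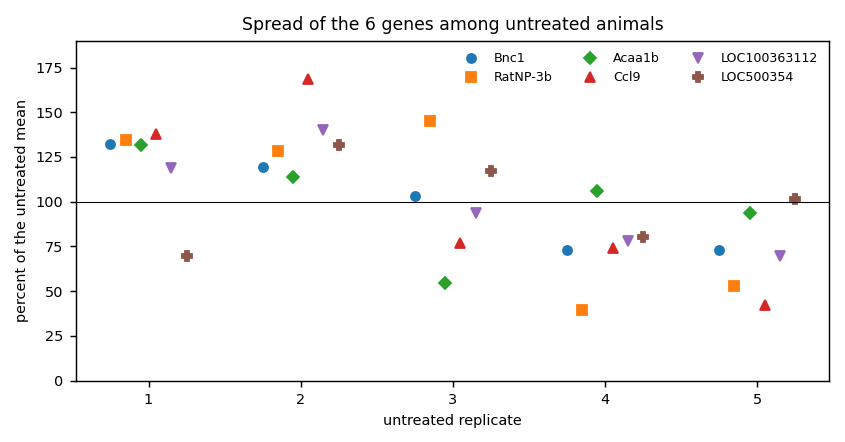
Level of each of the 6 genes in the 5 untreated replicates as a percent of that gene's untreated mean, drawn as a line at 100. Replicates 4 and 5 lie under the line for Bnc1, RatNP-3b, Ccl9 and LOC100363112, down to 39.5% for RatNP-3b in replicate 4.

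The 6 genes were set among all genes called lower, where their place is fixed by the rule that chose them. Of 315 genes called lower, the median RG2833 level was 68.4% of the untreated level. Under 10% there were 5 genes, of which 3 were members (RatNP-3b, Bnc1 and Acaa1b), and between 10% and 25% there were 5, of which 2 were members (Ccl9 and LOC100363112). From 25% to 50% there were 29, among them LOC500354, from 50% to 75% there were 196, and above 75% there were 80. The nearest genes outside the set were LOC257642 (annotated as rRNA promoter binding protein) at 6.93%, Bc1 (brain cytoplasmic RNA 1, a non-coding RNA of neurons) at 7.72%, Htr2c (a serotonin receptor) at 16.9%, Mx1 (an interferon-induced gene) at 18.8% and Gli1 (a transcription factor of hedgehog signalling) at 20.3%. Around LOC500354 at 31.0% lay Nppa at 29.1% and Tmsbl1 at 31.7%. In RG2833 animals Bc1 and LOC257642 were at 20.5 ± 3.00 and 22.3 ± 11.3 CPM (SD, n = 5).

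**Figure D4:**
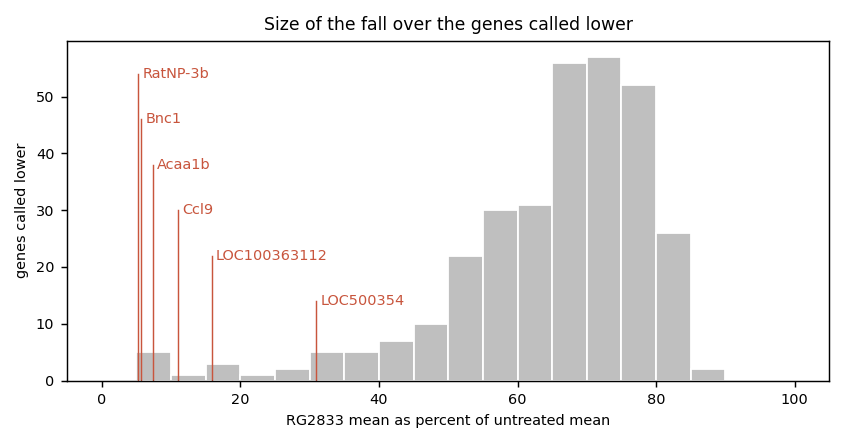
Histogram of the RG2833 mean as a percent of the untreated mean for the 315 genes called lower, in bands of 5 percentage points, with the 6 genes marked by red lines whose height has no meaning. Most genes, 196 of 315, lie between 50% and 75%, and the 6 lie between 5.29% and 31.0%.

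Fewer genes showed the same depth of change in the other direction, but the counts of lower genes include members, which were chosen for their fall. They also include 6 genes, named below, whose untreated mean was set by 1 animal. The counts are therefore no result about direction. Of 11854 genes with an untreated mean of at least 1 CPM, 12 (0.101%) were at under 10% of it in RG2833 animals and 37 (0.312%) at under 25%. Of 11740 genes with an RG2833 mean of at least 1 CPM, 0 were at under 10% of it in untreated animals and 1 (0.00852%), Ybx1, was at under 25%. At under 50% there were 1.41% of genes in the first direction and 0.324% in the second. Ybx1 encodes a nucleic acid binding protein and had means of 6.11 ± 13.3 CPM without and 31.8 ± 32.4 CPM with RG2833 (SD, n = 5; edgeR adjusted p = 0.249). The 6 genes outside the set with the lowest RG2833 level relative to untreated were Plac8, Ttr, Tmem72, Sostdc1, F5 and Kcnj13, at 2.60% to 6.28%. Each of these had its untreated mean set by replicate 1, as with Ttr at 2381 CPM in replicate 1 and between 3.80 and 14.8 CPM in the other untreated animals. For the 6 genes described here, the RG2833 level with each animal left out in turn lay between 4.82% and 6.46% of untreated for Bnc1, 3.79% and 6.30% for RatNP-3b, 8.25% and 13.3% for Ccl9, 14.8% and 17.7% for LOC100363112 and 25.7% and 36.1% for LOC500354, and between 1.93% and 9.19% for Acaa1b, whose lowest value was the one without RG2833 replicate 3.

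Divided reads were common among the 6. Non-whole estimated counts were present in 10 of 10 libraries for RatNP-3b, Ccl9 and LOC500354, in 9 for LOC100363112 and in 7 for Acaa1b. So 5 of 6 had them in some library, against 17.5% of the tested genes. Of the 5 genes outside the set that were called lower and left at under 25%, 4 had them, among them Bc1 and LOC257642 in all 10 libraries. For the genes called lower as a whole the share was 26.3% and for those called higher 16.5%. Acaa1b was the only member whose divided reads were balanced by 1 other gene. For RatNP-3b, Ccl9, LOC100363112 and LOC500354, 0 single genes and 0 pairs among the 2049 genes with non-whole counts in at least 3 libraries gave whole sums in all 10 libraries. Which sequences those reads share was not tested.

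The genes whose pattern over the 10 samples was most like the mean pattern of the 6 were Bc1 (Pearson r = 0.986), Rpl37a-ps1 (r = 0.977), annotated as a ribosomal protein L37a pseudogene, and Ebpl (r = 0.974), annotated as emopamil binding protein-like. The points share their libraries, and the group difference dominates them. Rpl37a-ps1 was left at 37.6% and Ebpl at 59.7% of the untreated level. The order of samples within a group was not compared.

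Fold changes of the size seen in the 6 were not found among their tested relatives, whose log2 fold changes lay between -1.04 and 0.18. The members were chosen for their fall and the relatives by family, so this contrast is set by the rule. Relatives near 0 in untreated animals could not show a fall. The basonuclin Bnc2 had means of 0.731 ± 0.225 CPM without and 0.754 ± 0.313 CPM with RG2833 (SD, n = 5), a difference that did not pass a two-sided exact permutation test (p = 0.921, 0.944 after Benjamini-Hochberg adjustment over 3 tests). It did not pass the filter on low counts. For Ccl6 the exact permutation p was 0.944 (adjusted 0.944), and for Acaa1a, higher in RG2833 animals by 3.59 CPM, it was 0.0238 (adjusted 0.0714). The smallest p that 5 animals against 5 allow is 0.00794. Among 36 relatives in the table, from the basonuclins, thiolases, CC chemokines and alpha-defensins, 9 passed the filter and 2 were called, both lower, beside 5.08% of all tested genes called. Hadhb, a subunit of the mitochondrial trifunctional protein, fell from 110 ± 7.38 to 89.9 ± 3.13 CPM (SD, n = 5), with edgeR's adjusted p = 0.0272 for a log2 fold change of -0.30 ± 0.06 (SE). Ccl24, an eosinophil-attracting chemokine, fell from 2.78 ± 0.774 to 1.32 ± 0.407 CPM (SD, n = 5), with edgeR's adjusted p = 0.0484 for -1.04 ± 0.27. Of the 10 fits that left out 1 animal, Hadhb was called in 3 and Ccl24 in 1. Ccl24 was not called by limma-voom or without the filter on low counts, and with the ribosomal RNA covariate 0 relatives were called. The thiolase list also holds Hadha, the alpha subunit of the trifunctional protein, which is not itself a thiolase. As a list it had a median log2 fold change of -0.12 over 7 tested genes, next to -0.00 for all tested genes. Scp2, the thiolase with the highest mean CPM (a scale not adjusted for gene length), was at 187.4 and 156.99 CPM and was not called (edgeR adjusted p = 0.168). Ccl27, the CC chemokine with the highest mean CPM, was at 17.95 ± 2.69 and 13.7 ± 1.99 CPM and was not called (edgeR adjusted p = 0.0928).

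Genes of the pathways around the members were called by edgeR at about the rate of all tested genes, of which 5.08% were called, so the counts below are no result about these pathways. Of 21 tested genes of peroxisomal fatty acid oxidation, Ehhadh and Hsd17b4 among them, 1 was called, and the median log2 fold change was -0.13. At an unadjusted p under 0.05 there were 10 of the 21, and DESeq2 called 2. Over all tested genes DESeq2 called 1295. The share of all tested genes at the unadjusted threshold is not given here. The unadjusted counts in this paragraph thus have no background, and the 5.08% is not theirs. The gene called by edgeR was Decr2, a peroxisomal reductase for unsaturated fatty acids, which fell from 9.90 ± 1.41 to 6.87 ± 0.567 CPM (SD, n = 5), with edgeR's adjusted p = 0.0400 for -0.53 ± 0.13 (SE) on the log2 scale, and was called in 2 of the 10 fits that left out 1 animal. Of 3 tested CC chemokine receptors 0 were called by edgeR or DESeq2, with 1 at an unadjusted p under 0.05. Ccr1, the receptor of Ccl9, was at 0.0385 ± 0.0528 and 0.0620 ± 0.139 CPM, under the floor in both groups. For the RNA polymerase I machinery, which transcribes the ribosomal RNA genes that basonuclin 1 binds, 1 of 18 tested genes was called and the median log2 fold change was -0.16. At an unadjusted p under 0.05 there were 5 of the 18, again without a background share, and DESeq2 called 4, beside 1295 over all tested genes. Polr2k, a subunit shared by the nuclear RNA polymerases, fell from 28.8 ± 4.50 to 19.9 ± 1.03 CPM, with edgeR's adjusted p = 0.0237 for -0.53 ± 0.11 on the log2 scale, and was called in 4 of the 10 fits.

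Adjoining genes were examined for the 5 members found in the RefSeq gene table. Of 50 neighbours, 5 on each side of each gene, 23 passed the filter on low counts and 0 were called by edgeR. With 5.08% of all tested genes called, a count of 0 among 23 says little about the neighbours. At an unadjusted p under 0.05 there were 10, for which the share of all tested genes is not given here, so nothing is read from it. Limma-voom called 0 and DESeq2 called 2 of the neighbours, beside 549 and 1295 over all tested genes. The log2 fold changes of the 23 neighbours lay between -1.11 and 0.81. The 2 extremes both adjoin Bnc1. Adamtsl3, an ADAMTS-like matrix protein gene, was at 3.99 and 1.84 CPM (log2 fold change -1.11, edgeR adjusted p = 0.10), and Mex3b, an RNA-binding protein gene, was at 20.9 and 36.9 CPM (0.81, edgeR adjusted p = 0.108). Around Acaa1b the 6 tested neighbours lay between -0.08 and 0.18, around Ccl9 the 3 tested lay between -0.20 and 0.33, and around LOC500354 the 5 tested lay between -0.32 and 0.34. Around RatNP-3b none was tested, since all 10 were at 0.

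**Figure D5:**
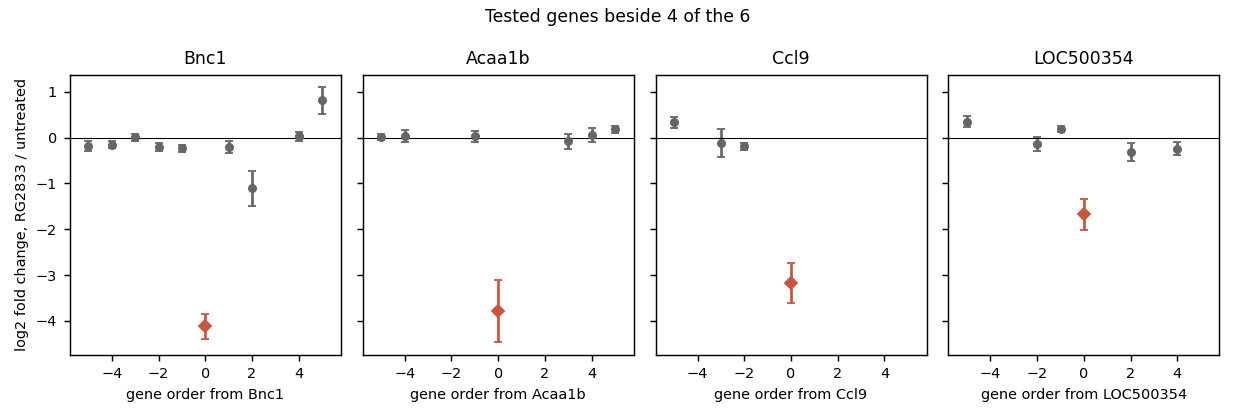
Log2 fold change with SE (RG2833 over untreated) of the tested genes in the 5 places on each side of Bnc1, Acaa1b, Ccl9 and LOC500354 in the RefSeq gene order (grey circles) and of the member itself at 0 (red diamond). The neighbours lie between -1.11 and 0.81, while the 4 members lie between -4.12 and -1.67.

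Markers of other cell types were set beside the members because several are genes of blood, epithelial or myeloid cells. Over all tested genes edgeR called 2.67% lower and 2.41% higher, and DESeq2 called 1295. The share of all tested genes at an unadjusted p under 0.05 is not given here. Counts from such short lists are therefore no result about the cell types. The 14 neutrophil markers summed to between 11.1 and 13.9 CPM in untreated and between 10.1 and 13.0 CPM in RG2833 libraries. Nearly all of this sum was Csf3r (means 6.65 and 6.92 CPM) and Mmp9 (5.07 and 3.54 CPM), so it says little about the other markers. The next highest, Prtn3, was at 0.540 and 0.461 CPM. Elane, Ctsg, Mmp8 and Cxcr2 had 0 counts in all libraries, and S100a8 and Mpo, abundant in neutrophils, had means of 0.0809 and 0.0838 CPM in untreated animals. The 2 tested neutrophil markers, Csf3r and Mmp9, were not called by edgeR or DESeq2, with 1 at an unadjusted p under 0.05. The 11 macrophage and microglia markers summed to between 259.9 and 383 CPM in untreated and between 239.6 and 314 CPM in RG2833 libraries, and 1 of 10 tested, Aif1, was called lower (-0.74 ± 0.20 on the log2 scale; edgeR adjusted p = 0.0496), in 2 of the 10 fits that left out 1 animal and not by limma-voom, without the filter or with the ribosomal RNA covariate. The 12 meningeal fibroblast markers summed to between 58.6 and 215 CPM and between 55.3 and 83.3 CPM, and 0 of 10 tested were called by edgeR, with 2 at an unadjusted p under 0.05 and 1 called by DESeq2. The 4 basal epithelial markers in the table summed to between 3.44 and 5.71 CPM and between 3.12 and 7.45 CPM. For choroid plexus markers the sum was 2501 CPM in 1 untreated library and 7.41 CPM in the lowest, against 7.25 to 49.5 CPM in RG2833 libraries, and 0 of 3 tested were called by edgeR, with 2 at an unadjusted p under 0.05 and 1 called by DESeq2. The 6 red blood cell markers in the table summed to between 4.97 and 27.9 CPM and between 2.38 and 26.9 CPM. The summed levels of these lists overlapped between the groups. The summed level of the 7 hippocampal neuron markers was higher in RG2833 libraries, without overlap (2904 to 4867 against 5047 to 5636 CPM). Most of that sum came from Slc17a7 (means 1626 and 2081 CPM), Camk2a (824 and 1313 CPM) and Grin1 (690 and 952 CPM). All 7 had positive log2 fold changes (0.356 to 1.04), but only Slc17a7 and Grin1 did not overlap between the groups. EdgeR called Camk2a and Grin1 higher, beside 2.41% of all tested genes called higher. They were called in 1 and 7 of the 10 fits that left out 1 animal, and neither was called with the ribosomal RNA covariate. The part of these cell types in the low levels was not tested.

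The ribosomal RNA share moved with the members, so the fits were repeated with its log2 value as a covariate. The log2 fold change was then -3.71 ± 0.48 (SE) for Bnc1, -3.01 ± 0.79 for RatNP-3b, -5.19 ± 1.12 for Acaa1b, -2.73 ± 0.80 for Ccl9, -1.96 ± 0.39 for LOC100363112 and -1.11 ± 0.63 for LOC500354. The standard errors were larger than without the covariate for all 6, and that of LOC500354 was more than 0.5 of its fold change. These values do not separate the share from the diet.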

How the data were processed

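Strand-specific mRNA libraries of 10 left hippocampi were made with a Kapa kit, per the labels' protocols. The submitters' processing notes name bcl2fastq 2.17, Bowtie2 2.1.0, RSEM 1.2.15, edgeR and the build rn6. The annotation is not given in the sources used here. The authors deposited RSEM expected counts with 2 decimals and no normalization, and a second table of TMM-scaled CPM, treated here as a normalized signal. Columns were matched to samples by the title in their heading, and 0 sample columns were left unused.

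Expected counts were rounded. Genes with low counts were removed with filterByExpr by group. Calls rest on glmQLFTest of edgeR (4.0.16, under R 4.3.3) after TMM normalization, with Benjamini-Hochberg adjustment over 11791 genes and a threshold of 0.05, and the fit was tested on simulated data. CPM are TMM-scaled. For 3 relatives the difference of mean CPM got an exact permutation test, two-sided. Alternatives used DESeq2 1.42.0 and limma 3.58.1. Within groups, 20 library pairs differed by more than sampling noise (chi-square per degree of freedom 4.74 to 37.9), so each library counted as 1 animal. The index of spread is the sum of squared deviations from the count expected at each library's depth, over that count, per degree of freedom. Gene order came from RefSeq's GRCr8 table, which matched 16983 of 17168 symbols and 5 of 6 members. Its build differs from rn6, so gene coordinates are not given, and promoter coordinates are those of GRCr8. The promoter windows of RatNP-3b and Np4, and those of Ccl9 and Ccl6, were aligned globally with free end gaps.

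The members and the lists were chosen with earlier results of these data known. Named genes were the members, relatives, pathway genes and neighbours that were called, the relative with the highest level in a family, the 3 genes most correlated with the mean z-scored log2 CPM (prior count 2) of the members, and the 6 genes in each direction with the most unequal group means above 1 CPM. The other genes named were chosen after their values were seen.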

Additional observations from a re-analysis of the deposited data

Results flagged for a closer look

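Each group of 5 animals was searched for a value whose gap to the nearest other exceeded 0.71 of the group's range, Dixon's 95% limit. Of 56 groups of 5 values, 12 held such a value, where chance gives about 2.8. Many of the genes were selected for unequal group means, and their values come from the same animals, so the groups are not independent.

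Among the 6 genes, only Acaa1b held such a value, in the RG2833 group, at 1.96 CPM in replicate 3 against at most 0.523 CPM in the others. Ccl6 was at 0.724 CPM in the same animal against at most 0.178 CPM. In the other direction, RG2833 replicate 2 held the lowest Rpl37a-ps1 value, 55.0 CPM, where the others were at 68.9 to 74.1 CPM.

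In untreated replicate 1, Plac8 was at 13.8 CPM, Ttr at 2381 CPM, Tmem72 at 6.86 CPM, Sostdc1 at 42.1 CPM, F5 at 16.1 CPM, Kcnj13 at 20.02 CPM and Ybx1 at 29.9 CPM, each far above the other untreated animals. In untreated replicate 4, Wnt3a was at 2.70 CPM against at most 0.229 CPM, and Stc2 at 1.68 CPM against at most 0.499 CPM.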

How the results depend on the processing

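The RG2833 level of each of the 6 genes as a percent of the untreated level moved by less than its SD under the deposited signal, library totals, DESeq2 size factors, group medians and each left-out animal, although the median put Acaa1b at 0%. Over the left-out animals the ranges were 4.82 to 6.46 (Bnc1), 3.79 to 6.30 (RatNP-3b), 1.93 to 9.19 (Acaa1b), 8.25 to 13.3 (Ccl9), 14.8 to 17.7 (LOC100363112) and 25.7 to 36.1 (LOC500354). Summing Acaa1a and Acaa1b, an alternative chosen after seeing the data, raised the Acaa1b value from 7.35 to 92.1.

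Counts of called genes were less stable. Over all genes, 599 were called, 1295 with DESeq2's Wald test, 1466 at an adjusted p under 0.1, 2 with the ribosomal RNA covariate and 98 to 1556 without 1 animal. Of the relatives 2 were called, 1 without the filter, with a mean count of at least 50, with limma-voom or with limma trend at pseudocount 0.1, 0 with the ribosomal RNA covariate, 4 at an adjusted p under 0.1 and 0 to 3 without 1 animal. Of the pathway genes 2 were called, 6 with DESeq2, 0 with the covariate, 5 at an adjusted p under 0.1 and 0 to 8 without 1 animal. Of the neighbours 0 were called, 2 with DESeq2, 1 at an adjusted p under 0.1 and 0 to 2 without 1 animal. Of the marker genes 3 were called, 7 with DESeq2, 0 with the covariate, 8 at an adjusted p under 0.1 and 0 to 10 without 1 animal. Leaving out untreated replicate 4 raised the count over all genes to 1556 and leaving out untreated replicate 5 raised it to 902, while each of the other 8 lowered it. The cause was not tested.

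The replicate numbers in the titles name different animals, and deviations of same-numbered samples had a mean correlation of -0.07. With the replicate block 180 genes were called over all, 0 relatives, 1 pathway gene, 0 neighbours and 1 marker gene. Acaa1a kept its direction and did not pass in any setting (log2 fold change 0.14 to 0.36). Bnc2 and Ccl6 passed no filter, so their fold changes could be fitted only without one (0.05 and 0.12). Levels under 3 counts are limited by depth.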

Other observations

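Large differences in the other direction, with the lower mean in untreated animals, were variable between animals. After Ybx1, the most unequal were Iqch, Mir935, Abcg3l2, Wnt3a and Stc2, whose untreated means were 26.9% to 35.3% of the RG2833 means. Mir935 was at 0.626 ± 0.783 and 2.173 ± 0.646 CPM (SD, n = 5; edgeR adjusted p = 0.113). Stc2, which encodes the secreted glycoprotein stanniocalcin 2, was at 0.648 ± 0.587 and 1.84 ± 0.986 CPM (edgeR adjusted p = 0.112). Abcg3l2 was at 1.18 ± 1.40 and 3.50 ± 2.86 CPM (edgeR adjusted p = 0.283). Iqch, at 0.334 ± 0.348 and 1.24 ± 0.861 CPM, and the Wnt ligand gene Wnt3a, at 0.604 ± 1.17 and 1.74 ± 1.63 CPM, did not pass the filter on low counts. None of the 6 genes in this direction was called.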
